A study of Drosophila melanogaster with 36 samples.

Results

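Long transposable-element loci were defined as the entries of the siRNA-locus tables of Drosophila S2 cells that carry the identifier of an annotated transposon insertion (FBti) and span at least 3000 nt between the start and the end given for the locus. They made up 1071 of the 13063 loci and came from 550 insertions of 74 families, with lengths of 3004 to 26407 nt and a median of 6133 nt. Identifier and length alone chose them, and no measured value entered the choice. Most insertions were listed once per strand: 526 entries ended in + and 545 in -, and 521 insertions had both. In the locus list of the study, as checked on chromosome arm 2L, an entry ending in - covers the annotated (sense) strand of the insertion and an entry ending in + covers the opposite (antisense) strand. Of the insertions, 313 lay within an annotated gene and 214 overlapped none.

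S2 cells are a cultured line derived from Drosophila melanogaster embryos. The libraries came from wild-type lines and from lines in which Cas9 had disrupted dora, hen1 or both genes, and each line was a clone grown from 1 sorted cell. Small RNA was sequenced untreated ("total": wild-type, dora and hen1), after oxidation with sodium periodate ("treated": wild-type and dora), after purification of Ago1 with a FLAG-tagged fragment of human TNRC6B ("Ago1-IP": wild-type and dora), and after immunoprecipitation of transfected FLAG-tagged Ago2 ("Ago2-IP": hen1 and hen1/dora). Ago2-bound RNA was thus measured only in cells without Hen1, and only for the tagged protein. Polyadenylated RNA was sequenced from wild-type and dora lines. Each of these 11 groups held 3 libraries, which makes 27 small-RNA and 6 RNA-seq libraries. The locus tables name loci by ID, so the genotypes were not checked here against the targeted genes, and fewer expressing cells cannot be told apart from less RNA per cell.

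In somatic fly cells, Dicer-2 cuts double-stranded RNA, including RNA made from both strands of a transposon, into endogenous siRNAs that guide Ago2 to slice transposon transcripts. Hen1 methylates the 3′ end of RNAs bound to Ago2, and this methyl group protects them from periodate, whereas Ago1 mostly holds unmethylated miRNAs. Dora is the fly counterpart of ZSWIM8, an adaptor of a ubiquitin ligase that mediates target-directed degradation of small RNAs. Most long fly insertions are LTR retrotransposons, which copy their RNA into DNA using the 3′ end of a host tRNA as primer, or non-LTR elements such as Doc and jockey. Since copies of a family are nearly identical, a small RNA from one copy usually matches many.

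Copy-specific sequence was scarce. Across the loci, a median of 0.499% of all 21-mers of an insertion occurred at 1 place in the genome, and a median of 86.9% occurred at 50 places or fewer, the largest number the aligner kept. The following stretches are given because they are the parts of the most abundant or most changed insertions where a 21-nt read is specific to 1 copy. Capitals mark the bases covered by 21-mers found at 1 place, and sequences are from the Release 6 assembly of RefSeq, on the annotated strand of the insertion.
FBti0019611 (297, chrX:9805103-9805174, minus strand): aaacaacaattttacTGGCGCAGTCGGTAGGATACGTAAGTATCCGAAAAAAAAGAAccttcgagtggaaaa
FBti0020008 (297, chr3L:406079-406149, minus strand): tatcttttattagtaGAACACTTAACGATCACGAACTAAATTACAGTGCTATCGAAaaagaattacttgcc
FBti0020126 (297, chr3L:16620951-16621012, plus strand): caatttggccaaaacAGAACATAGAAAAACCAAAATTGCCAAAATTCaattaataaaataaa
FBti0019152 (blood, chr2L:11714227-11714297, plus strand): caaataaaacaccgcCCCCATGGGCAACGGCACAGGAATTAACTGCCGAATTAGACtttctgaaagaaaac
FBti0019622 (gypsy5, chrX:11199428-11199547, minus strand): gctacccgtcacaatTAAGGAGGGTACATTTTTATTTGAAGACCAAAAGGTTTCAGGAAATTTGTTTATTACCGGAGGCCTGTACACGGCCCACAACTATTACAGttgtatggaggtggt
For FBti0019611 the stretch shown was the only copy-specific one, with 22 of its 6975 21-mers at 1 place. FBti0020008 had 21 of 6976, FBti0020126 had 15 of 5251 and FBti0019152 had 21 of 7391. The single gypsy5 copy differed from these, with 3420 of 7344 21-mers at 1 place.

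A pair of insertions with very abundant reads also held a match to the 3′ end of a tRNA, on the strand of the entry ending in +. They are given here with the tRNAs they match, because these were the first and second entries of wild-type total RNA. Capitals mark the shared bases, the entries are written on the strand opposite to the insertion, and each tRNA is written as its last bases with the CCA that is added after transcription.
FBti0019611+ (297, chrX:9805127-9805174, plus strand): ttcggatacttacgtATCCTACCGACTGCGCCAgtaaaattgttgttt
tRNA:Ser-AGA-2-1 (gene at chrX:14025566-14025647, minus strand): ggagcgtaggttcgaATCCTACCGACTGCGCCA
FBti0019450+ (roo, chr3R:28758756-28758815, minus strand): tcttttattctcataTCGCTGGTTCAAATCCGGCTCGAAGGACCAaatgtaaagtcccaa
tRNA:Tyr-GTA-1-1 (gene at chrX:21304441-21304535, minus strand): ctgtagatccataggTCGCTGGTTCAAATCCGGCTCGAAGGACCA
The 297 match covered 18 nt and started at base 414 of the insertion, where its copy-specific stretch also starts. These 18 bases occurred at 248 places in the genome. The roo match covered 30 nt, and this 30-nt sequence occurred at 1 place in the genome, in FBti0019450, of whose 5539 21-mers only 173 occurred at 50 places or fewer. A search of all insertions against 295 tRNA genes, made after the values had been seen, found 116 insertions of 16 families with a match of 18 nt or more, and all 116 matches lay on the strand of the + entry. The tables hold no read positions or read sequences, so whether reads came from the insertions or from tRNAs was not tested.

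The small-RNA libraries held 21001 to 244056 reads over all loci. The first total dora library held 244056, against 45419 to 62027 for the other total libraries of wild-type and dora lines, so levels are given below per 10000 reads mapped to the loci ("locus reads") wherever libraries are compared. The most abundant locus of a small-RNA library was no long transposon entry, and it was not the same locus in every library. It took between 16.5% and 55.1% of the locus reads of its library. The first treated dora library also stood apart: 181 long loci had a read in it, against 297 to 376 in the other treated libraries. The RNA-seq libraries held 115463 to 178220 reads over the loci.

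Most long loci gave few small RNAs. In the total libraries of wild-type and dora cells, 401 of 1071 had a read in at least 1 library and 55 in every library. The treated libraries covered the largest number, 580 in at least 1 and 107 in every library, and the Ago1-IP libraries the fewest, 196 and 13. In the Ago2-IP libraries 444 had a read and 87 had one in every library. Sparse reads were not particular to long loci. A read in every library was found for 5.14% of long and 7.53% of all loci in total libraries. These shares were 9.99% and 10.6% in treated, 1.21% and 1.81% in Ago1-IP, and 8.12% and 8.98% in Ago2-IP libraries. A total of 377 loci (35.2%) had no read in any of the 27 small-RNA libraries.

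The reads were concentrated on a handful of insertions. In wild-type total RNA, 251 loci had reads, but the 10 most abundant held 90.8% of them and FBti0019611+ alone held 49.0%. The 10 most abundant held 67.9% in treated wild-type libraries, 64.1% in wild-type Ago1-IP and 64.5% in hen1 Ago2-IP, and in these groups FBti0060280+, one strand of the only long 1731 insertion, led with 23.1%, 21.3% and 23.5%. By family, 297 supplied 51.8% of the wild-type total reads of long loci, 1731 18.6%, roo 12.6% and blood 7.21%. After periodate, 1731 supplied 37.9%, blood 13.9%, 297 12.2% and roo 11.4%. All 4 are LTR retrotransposon families.

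**Figure D1:**
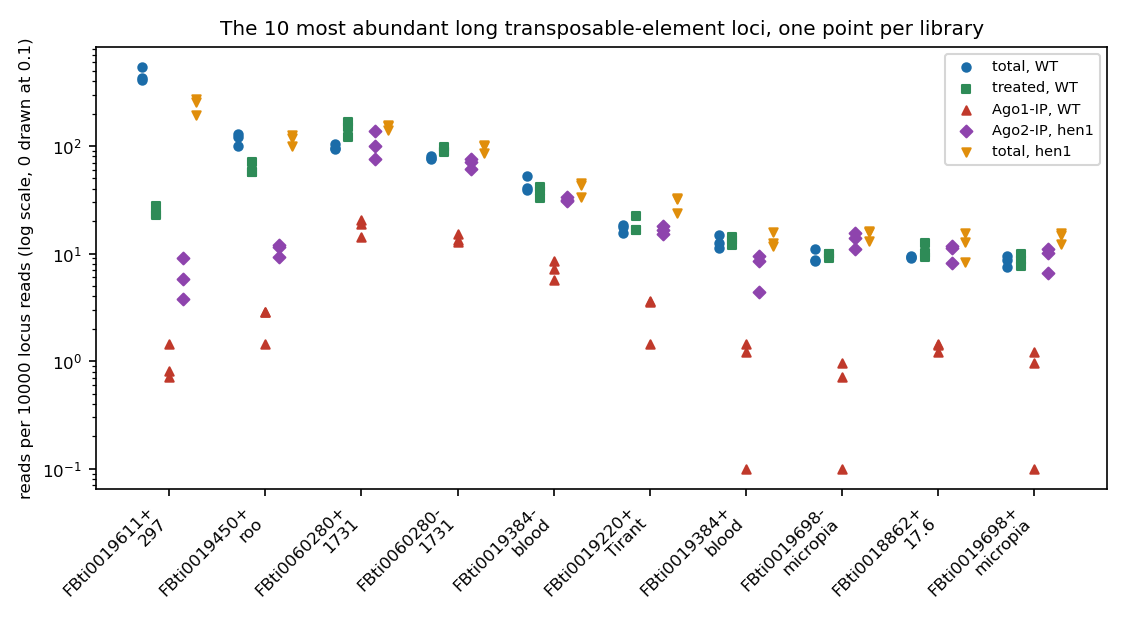
Small-RNA level of the 10 most abundant long loci of wild-type total RNA, in reads per 10000 locus reads on a log scale (0 drawn at 0.1), with 1 point per library and 1 color per group. FBti0019611+ had a median of 432 in wild-type total and 23.4 in wild-type treated libraries, whereas the 1731 entry FBti0060280+ had 96.7 and 148.

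FBti0019611+ is the antisense entry of a 297 copy on chromosome X, in an intron of CARPB and on the strand of that gene. It had 2053, 2931 and 1962 reads in the wild-type total libraries, and 208, 195 and 271 in the treated ones. Per 10000 locus reads this was a median of 432 (408 to 540) in total and 23.4 (22.6 to 27.9) in treated libraries. The wild-type Ago1-IP libraries held 2, 3 and 2 reads and the hen1 Ago2-IP libraries 19, 26 and 31, or medians of 0.810 and 5.74 per 10000. Its sense entry, FBti0019611-, had no read in any total library and at most 4 in a treated one. The locus was thus high in every total library and low in every treated, Ago1-IP and Ago2-IP library, and its reads lay almost wholly on the antisense strand. The same 18-nt match was present in 37 of the 39 long 297 insertions, and each of the other matching 297 entries had at most 37 reads summed over the wild-type total libraries.

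FBti0019450+, the antisense entry of a roo copy on arm 3R outside any annotated gene, was second in total RNA. Its wild-type reads were 604, 707 and 449 in total, 423, 492 and 824 in treated, and 7, 3 and 8 in Ago1-IP libraries. Per 10000 locus reads the medians were 120 in total, 57.1 in treated and 2.83 in Ago1-IP libraries, and 11.5 in Ago2-IP libraries of hen1 cells. The lowest total library (98.9) lay above the highest treated library (71.1). Its sense entry had 1 read in all 27 libraries together, in a treated dora library.

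FBti0060280, the only long 1731 insertion (arm 2R, no gene), gave reads from both strands. The + entry had 476, 562 and 439 reads in wild-type total and 1106, 1433 and 1407 in wild-type treated libraries, and the - entry had 404, 416 and 343, and 669, 844 and 1020. Per 10000 locus reads the + entry had a median of 96.7 in total, 148 in treated, 18.9 in Ago1-IP and 99.7 in Ago2-IP libraries. The - entry had 76.7, 89.8, 13.4 and 71.4. Neither strand was lower after periodate than before, in contrast to FBti0019611+ and FBti0019450+, and the + entry had more reads than the - entry in each wild-type small-RNA library.

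Blood FBti0019384 on arm 3R also gave reads from both strands, with 196, 222 and 239 sense and 75, 68 and 51 antisense reads in wild-type total libraries. Its - entry had medians of 40.9 per 10000 locus reads in total, 37.9 in treated, 7.13 in Ago1-IP and 31.6 in Ago2-IP libraries, so total and treated levels lay close together. Tirant FBti0019220 on arm 2L, in an intron of CG42238, gave mostly antisense reads: 89, 85 and 83 against 5, 6 and 4 sense reads in wild-type total libraries. FBti0019220+ is also one of the entries that match a tRNA end, over 18 nt, and its total and treated levels overlapped: it had 17.7, 15.7 and 18.3 per 10000 locus reads in wild-type total and 16.4, 22.5 and 16.7 in treated libraries. Micropia FBti0019698 on chromosome X was nearly balanced, with 44, 41 and 43 antisense and 44, 60 and 39 sense reads. Baggins FBti0063148+, an antisense entry on arm 2R within the noncoding gene CR46477, stood out in wild-type Ago1-IP libraries with 8, 10 and 12 reads. In the treated wild-type libraries it had 1, 0 and 0, and in the total ones 2, 5 and 0, so every Ago1-IP library held more of its reads than any deeper library of these groups. The 17.6 entry FBti0018862+ on arm 2R, by contrast, had 46, 50 and 43 reads in total, 69, 108 and 118 in treated and 3, 3 and 4 in Ago1-IP wild-type libraries.

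Long loci together held a mean of 9.40% ± 0.755 (SD, n = 3) of the locus reads in wild-type total libraries. The share was 6.24% ± 0.319 in treated and 0.840% ± 0.0691 in Ago1-IP wild-type libraries, and 4.37% ± 0.536 in hen1 Ago2-IP libraries. Total and treated libraries did not overlap, nor did treated and Ago1-IP libraries (two-sided exact permutation test, p = 0.1 each, the smallest that 3 libraries against 3 allow). The first of these differences turned around when FBti0019611+ was left out (a choice made after seeing the data): the total share was then 5.04% ± 0.201 and the treated share 6.0% ± 0.307, again without overlap. Without the 112 + entries that match a tRNA end, the shares were 3.54% ± 0.0531 in total, 4.99% ± 0.333 in treated and 0.740% ± 0.0817 in Ago1-IP libraries. Since a share depends on the other loci, it was also taken without 1 abundant locus that is no long locus. This locus was the same for all libraries and not the most abundant in each of them. The shares were then 15.3% ± 1.40 in total, 11.2% ± 0.779 in treated and 0.962% ± 0.0680 in Ago1-IP libraries.

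Among small-RNA libraries, the strands were most unequal in total ones, where the matching entries FBti0019611+ and FBti0019450+ were abundant. Entries ending in + held 81.4% ± 2.18 (SD, n = 3) of the reads of long loci in wild-type total, 61.3% ± 1.69 in treated, 51.6% ± 1.31 in Ago1-IP and 53.8% ± 2.30 in hen1 Ago2-IP libraries. Total against treated libraries differed by 20.0 percentage points without overlap (exact permutation test, p = 0.1). The 112 matching entries held 62.3% to 68.2% of the reads of long loci in the wild-type total libraries, 20.1% to 22.5% in treated, 9.33% to 14.5% in Ago1-IP and 11.9% to 13.7% in hen1 Ago2-IP libraries. FBti0019611+ and FBti0019450+ alone held 58.5% to 65.3% in wild-type total and 12.5% to 16.1% in treated libraries, so few of the total reads lay on the other matching entries. Without the 112 entries, the + share was 47.6% ± 1.49 in total, 51.0% ± 2.75 in treated, 44.9% ± 1.97 in Ago1-IP and 46.9% ± 2.33 in Ago2-IP libraries. Total and treated libraries then overlapped (exact permutation test, p = 0.2). All 112 end in + and the - entries stayed in, so leaving them out can only lower the + share. In RNA-seq the + entries held 3.33% ± 1.89 of the wild-type reads of long loci, so polyadenylated RNA lay almost wholly on the sense strand. Small RNA without the matching entries was near balance, a value that depends on leaving out entries of 1 strand only.

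**Figure D2:**
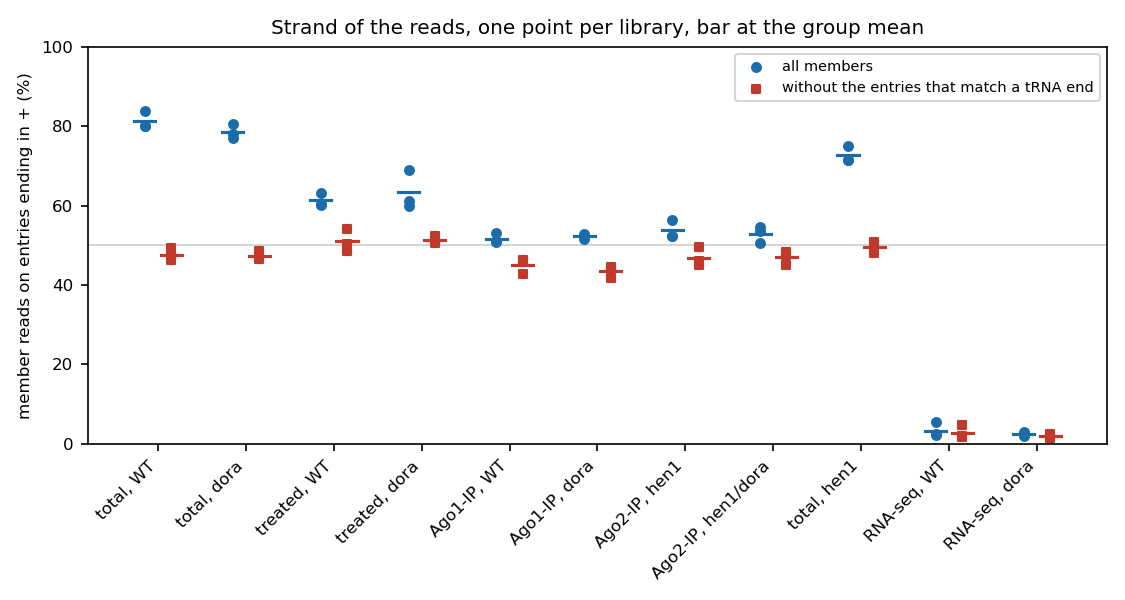
Percent of the reads of long loci that lay on entries ending in + (antisense), with 1 point per library and a bar at each group mean. Blue points are for all long loci, and red points are without the 112 entries that match a tRNA end, all of which end in +. The wild-type total mean was 81.4% with all loci and 47.6% without the matching entries, and the RNA-seq means were below 4%.

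Among insertions with both entries, treated wild-type reads of the 2 strands were related: across 290 insertions with a read on either strand, Spearman's rho was 0.57. In total RNA it was 0.04 across 172 insertions. Both values are descriptions across insertions of the same libraries, which share depth and, within a family, sequence. By the strand of the host gene, without the tRNA-matching entries and with no test made, for 118 insertions within a gene on their own strand the + entries held 41.1% of the treated wild-type reads, and for 166 within a gene on the opposite strand 40.0%. In total wild-type libraries the same shares were 33.8% of 216 reads and 47.9% of 167 reads. With the matching entries the treated shares were 47.3% and 76.9%.

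Reads also varied with how much of an insertion lay at few enough places for the aligner to keep its reads. Of the 297 loci with at most 10% of their 21-mers at 50 places or fewer, 37.4% had a read in treated wild-type libraries, against 62.5% of the 299 loci at 50 to 90% and 39.6% of the 445 loci above 90%. These last were also most often without any small-RNA read (46.7%, against 29.6% in the first class). As a class they still held 63.6% of the treated and 30.1% of the total wild-type reads of long loci. A 21-mer at 50 places or fewer is not specific to 1 copy. A read of the repeated families is shared out among copies by the quantification, so the level of 1 copy of 297, roo or blood is an estimate.

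Does loss of Dora raise siRNAs of transposons, and does this depend on the Argonaute that holds them? In total RNA, no long locus passed the test: 54 qualified, with reads in all 6 libraries and an SD below the mean within both genotypes, and 0 were called (limma, Benjamini-Hochberg adjusted p under 0.05 over 963 loci), where the share called over all loci tested was 0%. Of these 54, 10 had an unadjusted p under 0.05 (9 higher, 1 lower in dora cells), against 10.2% of all loci tested. Their median log2 fold change was 0.24, that of all loci -0.06, and 41 of the 54 estimates were above 0. Of the 963 loci, 756 were regions of overlapping antisense transcripts (cis-NAT), with a median of -0.15. Transposon entries below the length limit had 0.15 (50 of 86 above 0), and loci labelled overlap had 0.22 (45 of 65). A median above that of all loci was thus not particular to long loci. Among the long loci, edgeR on the recovered reads also called 0, and 1 was called by limma without the third dora library.

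The smallest unadjusted p of the 54 was that of the sense entry of the 1731 insertion. FBti0060280- had 404, 416 and 343 reads in wild-type and 3619, 630 and 539 in dora total libraries, where the first dora library is the deep one, and FBti0060280+ had 476, 562 and 439 against 3691, 815 and 703. Per 10000 locus reads the - entry lay at 75.5 to 80.3 in wild-type and 86.9 to 148 in dora libraries, and the + entry at 94.6 to 104 and 113 to 151. The 2 genotypes did not overlap at either entry, with log2 fold changes of 0.61 ± 0.19 (SE) and 0.53 ± 0.18, and the limma adjusted p was 0.220 and 0.295. Without the filter on low values, both entries passed at the same fold changes (limma adjusted p = 0.0075 and 0.0042). In treated libraries the same entries changed by 0.82 ± 0.42 and 0.70 ± 0.44 (limma adjusted p = 0.641 and 0.751), in Ago1-IP libraries by 0.43 ± 0.29 and 0.41 ± 0.28 (0.639 and 0.622), and in Ago2-IP libraries by 0.68 ± 0.21 and 0.55 ± 0.23 (0.259 and 0.534). The estimate was above 0 in all of these comparisons, of which none passed the threshold with the filter, and the Ago2-IP libraries compare other cell lines than the rest.

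After periodate, 98 long loci could be tested, 0 were called by limma (0% of all loci) and 15 had an unadjusted p under 0.05, with 8 higher and 7 lower, against 8.31% of all loci. The median log2 fold change was -0.02, against -0.15 for all loci and 0.10 for transposon entries below the length limit. These counts rested in part on 1 library: without the third treated dora library, 7 long loci were called, 4 higher and 3 lower. The share of all loci called in that setting is not given here, so this count does not show whether long loci stood apart. In the first treated dora library FBti0019450+ rose to 2377 reads, or 290 per 10000 locus reads, against 41.7 and 65.6 in the other treated dora libraries, while FBti0019611+ had 23 reads (2.81 per 10000) against 193 and 295.

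In Ago1-IP libraries only 13 long loci could be tested, and 0 of them were called by limma, against 2.63% of all loci. One, FBti0059648-, had an unadjusted p under 0.05, against 12.3% of all loci. It is the sense entry of a 297 copy on arm 2L that overlaps Marf1 and had 5, 2 and 2 reads in wild-type and 16, 19 and 7 in dora libraries. The groups did not overlap in the scaled values of the tables, but they did per 10000 locus reads (0.713 to 2.02 in wild-type and 1.94 to 6.29 in dora libraries). Its log2 fold change was 1.90 ± 0.61 (SE), and its adjusted p was 0.0898 in limma. Over the alternatives the adjusted p lay between 0.00371 and 0.523, and the locus was called by edgeR on the recovered reads and by limma without the first wild-type or the third dora library. The median log2 fold change of the 13 was 0.41, against 0.05 for all loci. All long loci together held 0.840% ± 0.0691 of the locus reads in wild-type and 1.18% ± 0.184 in dora Ago1-IP libraries, without overlap (two-sided exact permutation test, p = 0.1).

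In Ago2-IP libraries of hen1 against hen1/dora cells, 86 long loci could be tested and limma called 0, against 0.172% of all loci. Of these, 11 had an unadjusted p under 0.05, 10 of them higher without Dora, against 7.57% of all loci, and edgeR on the recovered reads also called 0. Without the first hen1 library limma called 2, without the second 1, and with the replicate block 2. The median log2 fold change was 0.24, against -0.01 for all loci. Whether the effect of Dora differed between Ago1-IP and treated libraries could be tested for 11 long loci, and limma's interaction term called 0 (0% of all loci). FBti0019611+ had an unadjusted p under 0.05 there, against 8.57% of all loci, with a difference of 1.89 ± 0.90 (SE) and an adjusted p of 0.574. It had 2, 3 and 2 Ago1-IP reads in wild-type and 8, 5 and 3 in dora libraries, and the low first treated dora library enters the same fit.

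Shares of all long loci moved in the same direction in each library type, with overlap in 3 of the 4. They were 10.9% ± 2.2 in dora against 9.40% ± 0.755 in wild-type total libraries (exact permutation test, p = 0.4), 8.05% ± 1.45 against 6.24% ± 0.319 in treated (p = 0.2, same exact test), and 5.16% ± 0.286 in hen1/dora against 4.37% ± 0.536 in hen1 Ago2-IP libraries (p = 0.2, same exact test). Without the same abundant locus as above, which is no long locus and not the most abundant in every library, the shares did not overlap in any of the 4 (exact permutation test, p = 0.1 each). They were 15.3% ± 1.40 in wild-type and 18.1% ± 1.26 in dora total, 11.2% ± 0.779 and 14.2% ± 0.976 in treated, 0.962% ± 0.0680 and 1.61% ± 0.210 in Ago1-IP, and 5.46% ± 0.852 in hen1 and 6.98% ± 0.262 in hen1/dora Ago2-IP libraries. Without the tRNA-matching entries, only the treated shares overlapped (exact permutation test, p = 0.3), and total libraries had 3.54% ± 0.0531 and 4.73% ± 0.834, Ago1-IP libraries 0.740% ± 0.0817 and 0.995% ± 0.115, and Ago2-IP libraries 3.83% ± 0.456 and 4.61% ± 0.228. Both were choices made after seeing the data. The shares were not taken without FBti0060280, so how much of the rise came from this insertion was not tested. Its + entry held 23.1% of the reads of long loci in wild-type and 26.5% in dora treated libraries. In Ago2-IP libraries it held 23.5% in hen1 and 26.0% in hen1/dora, and in Ago1-IP libraries 21.3% in wild-type and 20.1% in dora. Whether library types share clones is not stated, so their common direction need not be independent. The + share overlapped between genotypes, with 78.6% ± 1.85 in dora against 81.4% ± 2.18 in wild-type total libraries (exact permutation test, p = 0.3), and 63.3% ± 4.94 against 61.3% ± 1.69 in treated ones (exact permutation test, p = 0.7). Without the deep first dora library the total share of long loci was 9.87% ± 1.69, a difference of 0.462 percentage points (exact permutation test, p = 0.7). Without the first treated dora library the treated share was 7.51% ± 1.58 (exact permutation test, p = 0.2).

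**Figure D3:**
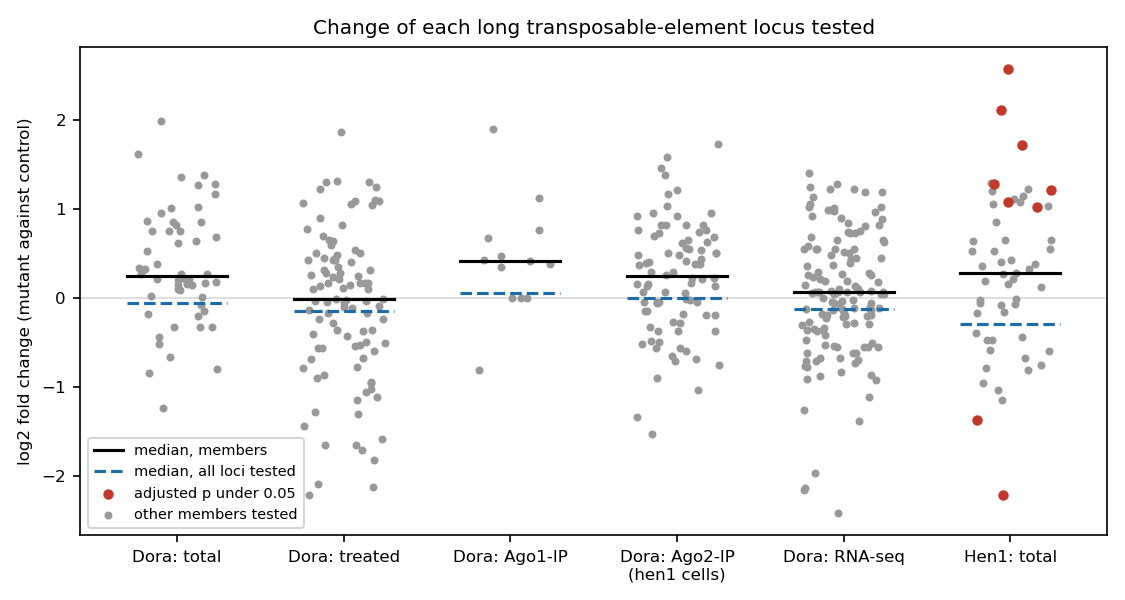
Log2 fold change of each long locus tested, mutant against control, for 5 comparisons without Dora and 1 without Hen1, with 1 point per locus and lines at the median of the long loci (black) and of all loci tested (blue, dashed). Red points passed an adjusted p of 0.05: there were 9, all upon loss of Hen1, of which 7 were higher and 2 lower.

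Upon loss of Hen1, the sum over long loci depended on what it was set against. Against the summed reads of 15 miRNAs that the study used to normalize this comparison (a sum taken after seeing the data), long loci had 2918, 3383 and 3547 reads per 1000000 miRNA reads in wild-type and 2536, 2386 and 2208 in hen1 libraries, so every hen1 library was lower (two-sided exact permutation test, p = 0.1). Without FBti0019611+ the groups overlapped, with 1599, 1604 and 1829 against 1756, 1789 and 1735 (exact permutation test, p = 0.4). As a share of locus reads, long loci held 9.34% ± 0.745 (SD, n = 3) in hen1 total libraries, against 9.40% ± 0.755 in wild-type ones (two-sided exact permutation test, p = 0.8). The share of FBti0019611+ in the reads of long loci was 45.2% to 52.6% in wild-type and 21.4% to 30.8% in hen1 libraries. Without it, long loci held 5.04% ± 0.201 in wild-type and 7.11% ± 0.796 in hen1 libraries, which did not overlap (exact permutation test, p = 0.1). The hen1 libraries were made in another batch than the wild-type ones, so batch and genotype cannot be told apart in any of these values.

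Against the same miRNA reads, 55 long loci could be tested, of which 7 were higher and 2 lower (edgeR quasi-likelihood test, adjusted p under 0.05 over 1002 loci), while 1.7% of all loci were higher and 7.09% lower. The median log2 fold change was 0.28 for the long loci and -0.30 for all loci. It was -0.37 for 780 cis-NAT loci, -0.14 for transposon entries below the length limit and 0.22 for loci labelled overlap. Of the overlap loci, 4 of 69 were higher and 1 lower, and of the shorter transposon entries 0 of 96 were higher and 5 lower. A median above that of all loci was thus not particular to long loci. By family, 16 entries of 297 were tested, 6 of which rose and 1 fell. One entry of 9 of blood rose, 1 of 5 of mdg1 fell, and the 4 of jockey had estimates above 0 but did not pass the test.

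The fall was FBti0019611+, which had 1319, 1779 and 1718 reads per 1000000 reads of these miRNAs in wild-type and 780, 597 and 473 in hen1 libraries. The highest hen1 library lay below the lowest wild-type library, and the log2 fold change was -1.38 ± 0.22 (SE; edgeR adjusted p = 1.3e-05). This call held under every alternative run. FBti0019450+, the roo entry with the longer tRNA match, had a log2 fold change of -0.48 ± 0.22 (edgeR adjusted p = 0.160). In contrast, other copies of 297 rose.

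FBti0020126+, within Abl on arm 3L and overlapping an annotated exon, had 2, 3 and 1 reads in wild-type and 23, 34 and 27 in hen1 libraries, or 1.28, 1.82 and 0.876 against 7.15, 10.4 and 7.81 per 1000000 miRNA reads. FBti0020008+, outside any gene on arm 3L, had 13, 14 and 1 reads against 78, 85 and 43, and FBti0059648+ on arm 2L had 8, 8 and 9 against 46, 67 and 28. In each, every hen1 library lay above every wild-type library, and the log2 fold changes were 2.57 ± 0.57, 1.72 ± 0.41 and 1.29 ± 0.41 (SE; edgeR adjusted p = 0.0015, 0.0036 and 0.0381). FBti0020126+ kept its call under every alternative run, whereas FBti0020008+ lost it without the third wild-type library (log2 fold change 1.30, edgeR adjusted p = 0.0708) and FBti0059648+ under 8 of 11 alternatives. Blood FBti0019152- on arm 2L rose by 2.12 ± 0.54 (edgeR adjusted p = 0.0072), from 4, 3 and 1 reads to 29, 19 and 33, and did not pass without the third wild-type library (edgeR adjusted p = 0.0658).

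The remaining calls, named after their values were seen, were the 297 entries FBti0059648-, FBti0019612- and FBti0019758+, higher by 1.21, 1.03 and 1.08 on the log2 scale (edgeR adjusted p = 0.0216, 0.0420 and 0.0481), and the mdg1 entry FBti0019001-, lower by 2.22 on the log2 scale from 8, 1 and 2 reads to 1, 2 and 2 (edgeR adjusted p = 0.0237). FBti0059648- lost its call under 4, FBti0019612- under 7 and FBti0019758+ under 9 of 11 alternatives. The groups overlapped for FBti0059648-, with 18.0, 7.28 and 8.76 reads per 1000000 miRNA reads in wild-type and 30.8, 33.9 and 15.3 in hen1 libraries. The mdg1 call rested on the first wild-type library, without which the log2 fold change was -1.03 (edgeR adjusted p = 0.646). Only 2 of the 9 calls were left without the third wild-type library, and 4 without the first or the second wild-type library or the first hen1 library. The long 297 copies share most of their 21-mers (15 to 22 copy-specific ones in the 3 printed above), so these entries are not independent of each other. FBti0059648 was an exception, with 80.5% of its 21-mers at 1 place.

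**Figure D4:**
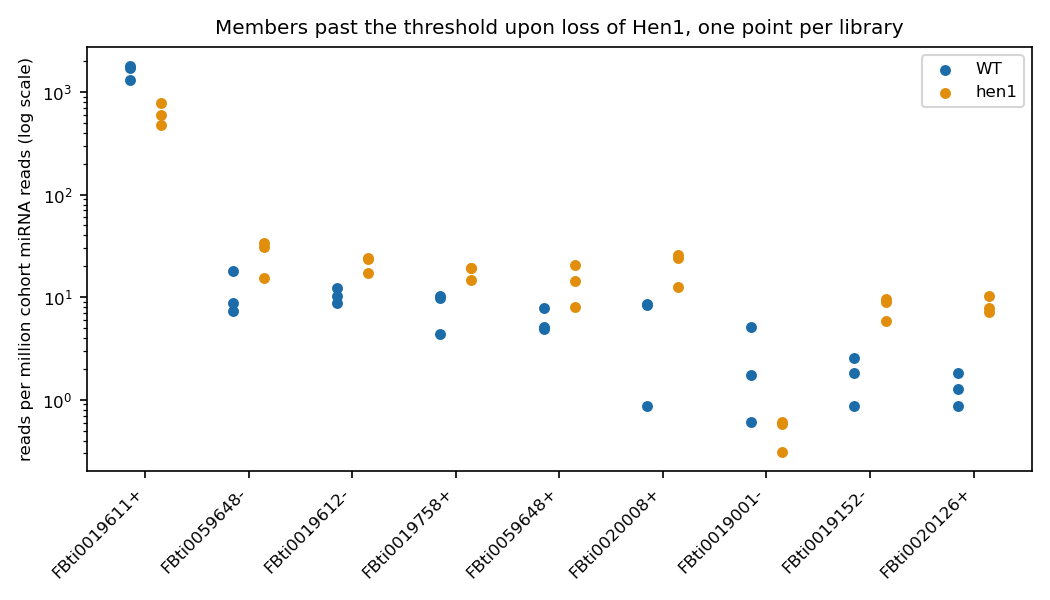
Reads per 1000000 reads of the 15 miRNAs, on a log scale, for the 9 long loci that passed the threshold upon loss of Hen1, with 1 point per library (blue wild-type, orange hen1). FBti0019611+ lay between 1319 and 1779 in wild-type and between 473 and 780 in hen1 libraries, and FBti0020126+ lay between 0.876 and 1.82, and between 7.15 and 10.4.

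The RNA-seq libraries address whether polyadenylated transcripts of these loci changed together with their siRNAs. In wild-type cells 43.3% of the RNA-seq reads of long loci came from FBti0019622-, the sense entry of the single long gypsy5 insertion, with Doc at 12.3% and copia at 11.9%. The families that led the small RNAs were low, with 2.03% of the RNA-seq reads from 1731, 2.10% from blood and 0.316% from 297. FBti0019611+ and FBti0019450+ had no RNA-seq read in any wild-type library. Across 206 insertions with reads of either kind in wild-type cells, sense RNA-seq reads and treated small-RNA reads of both strands had a Spearman's rho of 0.32, a description across insertions that share depth and family sequence.

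Upon loss of Dora, 138 long loci could be tested in RNA-seq and 0 were called by limma (0% of all loci) or by edgeR on the recovered reads. An unadjusted p under 0.05 was found for 10 (4 higher, 6 lower), against 13.2% of all loci. The median log2 fold change was 0.06, against -0.12 for all loci. FBti0060280- had 469, 581 and 397 RNA-seq reads in wild-type and 516, 543 and 670 in dora libraries, which overlapped, with a log2 fold change of 0.36 ± 0.33 (SE; limma adjusted p = 0.675).

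Some insertions with abundant transcripts had few or no small-RNA reads in the tables. Doc FBti0019417-, a non-LTR element on arm 3R, had 3125, 1740 and 1286 RNA-seq reads in wild-type and 5122, 5717 and 1627 in dora libraries, and 0 small-RNA reads in all 27 libraries, which allows a level of up to 0.0165 per 10000 locus reads (3 reads of the 1820912 summed locus reads, counting error only). This limit covers only kept reads: 1.88% of its 21-mers occurred at 50 places or fewer, so most small RNAs of this copy would not have been counted. The accord entry FBti0018951- had 825, 767 and 1393 RNA-seq reads in wild-type libraries, the opus entry FBti0063007- had 1153, 660 and 651, and neither had more than 3 reads in any small-RNA library, with 99.8% and 72.7% of their 21-mers at 50 places or fewer. A second Doc entry, FBti0019430- within CHKov1, had 1707, 1259 and 2125 RNA-seq reads and did give small RNA, with 12, 9 and 31 reads in treated wild-type libraries, although 10.2% of its 21-mers occurred at 50 places or fewer. Reads of Doc match many copies (a median of 103 places per 21-mer over the long Doc loci), and those with over 50 places were not kept.

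The RNA of several insertions differed widely between libraries of 1 genotype, each of which came from another clone. The 10 long loci with at least 100 RNA-seq reads in a library and a range of at least 5-fold over the libraries of both genotypes were singled out. This was done after the values had been seen, and no separate test was made on them. Gypsy5 FBti0019622- had 18617, 589 and 20668 RNA-seq reads in the wild-type and 1373, 23040 and 18453 in the dora libraries, so the second wild-type and the first dora library were low. Its treated small-RNA reads were 57, 5 and 56 in wild-type and 0, 52 and 71 in dora libraries, low in the libraries with the same numbers. In total RNA the reads were 8, 1 and 5, and 7, 24 and 20, and in Ago1-IP libraries 2, 0 and 0, and 0, 8 and 7. The first total dora library, with 7 reads, is the deep one, so its level per 10000 locus reads (0.287) was also low.

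A neighbouring pair on arm 2R, invader6 FBti0060363 and Circe FBti0018885, 315 bases apart and both LTR elements, was highest in the third dora libraries of RNA-seq, total and treated RNA. Circe FBti0018885- had 2, 3 and 10 RNA-seq reads in wild-type and 2, 5 and 229 in dora libraries, and its treated reads were 0, 0 and 0, and 0, 3 and 36. Invader6 FBti0060363- had 3, 1 and 7, and 5, 5 and 108 RNA-seq reads, with treated reads of 0, 0 and 0, and 0, 1 and 6. In Ago2-IP RNA, where the hen1/dora lines are other clones, the second hen1/dora library held 10 Circe and 4 invader6 reads over both strands. The other 2 hen1/dora libraries held no Circe read, and 1 invader6 read was found in the first and none in the third. Gypsy10 FBti0061160- had 837, 78 and 266, and 60, 513 and 356 RNA-seq reads, and so was low in the same libraries as gypsy5, but it had at most 7 reads in any small-RNA library. The labels do not state that a replicate number names the same clone in different library types, so the match between RNA-seq and small RNA rests on the number alone. Numbers did not always carry over: the deep total dora library is the first at the loci but bears another number among the miRNA counts. Doc FBti0019417-, mdg1 FBti0019000-, BS FBti0019332- and roo FBti0062208- were also in this set. Each was higher in the first and second dora libraries than in the third. Their dora RNA-seq reads were 5122, 5717 and 1627, 2827, 2889 and 965, 715, 712 and 212, and 591, 582 and 200. These loci reached the 5-fold range only across both genotypes. Doc FBti0019417 had 72.2 to 192 reads per 10000 locus reads over both strands in wild-type and 120 to 403 in dora libraries. The remaining members of the set, flea FBti0019425- and ninja-Dsim-like FBti0018952-, were lower in every dora than in every wild-type RNA-seq library. Flea had 66, 63 and 116, and 21, 5 and 20 reads, and ninja-Dsim-like 208, 167 and 211, and 76, 129 and 6. Treated small RNA of flea over both strands was also lower in every dora library, with 13, 23 and 20, and 6, 10 and 11 reads, but total levels overlapped.

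**Figure D5:**
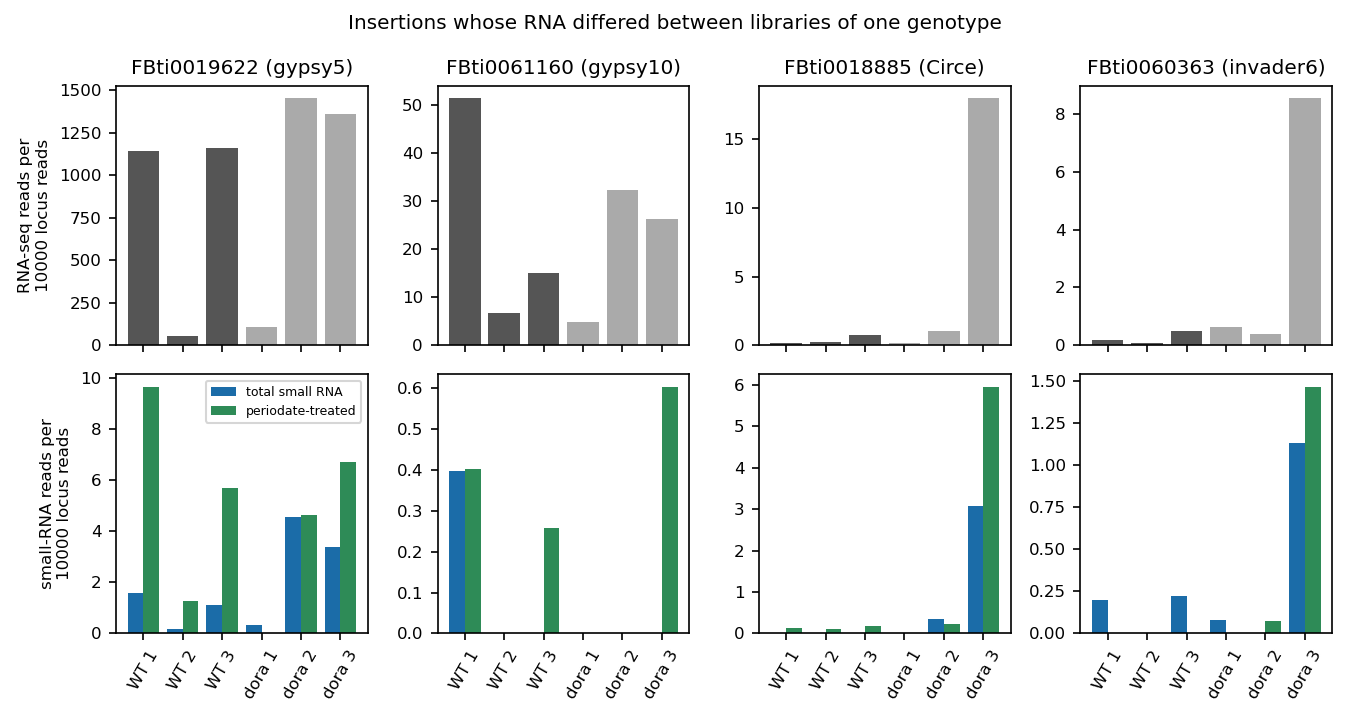
RNA-seq reads (upper row) and small-RNA reads of total and treated libraries (lower row) per 10000 locus reads for 4 insertions, with 1 bar per library and both strands summed; each panel has its own scale. Gypsy5 was low in wild-type 2 and dora 1 in both rows, and Circe and invader6 were highest in dora 3.

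Near the length limit, the loci just inside and just outside it were the 3S18 insertion FBti0019649 on chromosome X (3006 and 3004 nt) and the Juan insertion FBti0019381 on arm 3R (2996 and 2994 nt). FBti0019649+ had 10, 7 and 9 reads and FBti0019649- 6, 5 and 10 in treated wild-type libraries. FBti0019381+, a non-LTR copy that is no long locus by the rule, had 101, 73 and 154, and FBti0019381- had 227, 172 and 223.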

How the data were processed

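Small RNAs and polyadenylated RNA of S2 clonal lines were measured. The members and lists were chosen with earlier results of these data known. The authors trimmed and filtered reads, aligned them to dm6 with STAR (2.4, at most 50 places per read) and summed them over non-overlapping loci with Cufflinks and Cuffdiff (2.2.1), each sample separately. The deposited total, treated, Ago1-IP and Ago2-IP tables hold signal: reads scaled by the authors to genome-mapped reads, without length correction. The deposited table for loss of Hen1 holds read counts, as do the deposited miRNA tables (first 19 nt matched), from which the 15-miRNA cohort was summed. The deposited RNA-seq table holds FPKM. Another 6 value columns of the miRNA tables used were left out. For the total miRNA counts, a column with a doubled digit in its name was read as the second wild-type library. That reading sets the cohort reads of this library for loss of Hen1.

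Each signal column was a whole multiple of 1 step in every one of its low values (100%, within 0.1 of a read), which gave the reads printed here. For RNA-seq, FPKM times (length minus 200 nt) was whole for 94.9% to 96.3% of low values at loci of 1000 nt or more, and read numbers were rounded. Scaled values were therefore tested with limma (3.58.1, trend) on log2(value + 1), RNA-seq on log2(value + 0.01), which understates changes of low loci. Counts for loss of Hen1 were tested with edgeR (4.0.16, quasi-likelihood) with the cohort as library size. Loci needed a value above 0 in every library and, within both genotypes, a coefficient of variation below 1, and p was adjusted by Benjamini-Hochberg over all loci tested (0.05). Shares were compared by two-sided exact permutation tests over libraries, 3 against 3, with a smallest p of 0.1. The main limma and edgeR tests across loci were checked on simulated data, and the permutation tests were not. The limit given for 0 reads covers counting error only. SD values are the spread between the libraries of a group, and SE values come from the limma and edgeR fits across libraries.

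Named loci were the 10 highest in wild-type total RNA, the 5 highest in wild-type treated, Ago1-IP and RNA-seq and in hen1 Ago2-IP libraries, up to 4 called loci per direction and test whose groups did not overlap, their other strands, and the neighbours of the length limit. Others are said to have been named after their values were seen. Replicates share numbers across groups, but samples with the same number did not deviate together in every pair, so the numbers were not used as pairs. Alternatives were another scaling, pseudocount and filter, edgeR on recovered reads, DESeq2 (1.42.0) and TMM for loss of Hen1, the replicate block (for Ago2-IP by the column numbers, as its columns are tied to a genotype but to no single sample) and leaving out each library. Total libraries of hen1/dora cells were not analysed here at loci. Coordinates are those of Release 6 (dm6). Tool names and versions of the upstream steps are from the submitters' processing notes.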

Additional observations from a re-analysis of the deposited data

Results flagged for a closer look

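Of the long loci tested upon loss of Dora in more than 1 library type, jockey FBti0018986-, a non-LTR copy in an intron of luna, had a higher scaled level in every dora total small-RNA library and a lower one in every dora RNA-seq library than in any wild-type one. Its total reads were 9, 10 and 7 in wild-type and 57, 30 and 13 in dora libraries (log2 fold change 0.86), and its RNA-seq reads 28, 13 and 18, and 1, 4 and 11 (log2 fold change -1.97). The estimates differed by 2.83 on the log2 scale, and this difference was not tested. Neither change passed the threshold alone (limma adjusted p = 0.487 and 0.303). Groups of 3 libraries were not examined for outlying samples.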

How the results depend on the processing

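Of the values of named loci under the alternatives, 844 kept direction and side of the threshold, 34 no longer passed, 22 newly passed and 3 reversed. In total RNA limma called 2 long loci without the filter on low values (both 1731 entries) and 1 with the replicate block (FBti0020008+), against 0, and 0 to 1 when 1 library was left out. The range was 0 to 7 in treated, 0 to 1 in Ago1-IP and 0 to 2 in Ago2-IP libraries, and edgeR called 1 in Ago1-IP. For loss of Hen1, DESeq2 called 5 against 9, and the range without 1 library was 2 to 8. The block gave 11 there, 2 in Ago2-IP and 0 in treated, Ago1-IP and RNA-seq libraries. Same-numbered libraries did not all deviate together (r of -0.0892, -0.00572 and 0.123 in total libraries, and under 0.1 for at least 1 number in each comparison), so the numbers were taken as names. For Ago2-IP the block used the numbers of the table's columns. A fit by edgeR on recovered reads was not run for treated libraries. Counts of called long loci under the alternatives are given without the share of all loci called. They therefore do not show whether long loci stood apart there. FBti0060280+ in RNA-seq was at 0.030 in edgeR (-0.07 in limma) and between -0.26 and 0.11 without 1 library, and FBti0060280- upon loss of Hen1 was at 0.12 with TMM, against -0.16.

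Differences of shares, in percentage points, also turned. For the share of long loci, treated minus total was 0.967 without FBti0019611+ and 1.45 without the tRNA-matching entries, and hen1 minus wild-type total was 2.08 and 1.76, and between -0.490 and 0.371 without 1 library. For the + share, dora minus wild-type lay between -0.800 and 3.74 in treated and between -1.51 and 0.205 in RNA-seq libraries without 1 library, and hen1/dora minus hen1 in Ago2-IP libraries between -1.71 and 0.487. Without the tRNA-matching entries it was -1.49 in Ago1-IP and 0.199 in Ago2-IP libraries, treated minus total was 3.35 and hen1 minus wild-type 2.01. The summed long loci per 1000000 miRNA reads, hen1 minus wild-type, went from -906 to 82.9 without FBti0019611+ and 121.5 without the tRNA-matching entries, and lay between -1089 and -774 without 1 library. Causes were not tested. Alternatives that leave out entries were chosen after seeing the data. Depth limits Ago1-IP most, where 13 long loci could be tested.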
